A study of Mus musculus with 384 samples.

Results

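The genes described here are 10 genes of MHC class I presentation, namely B2m, H2-K1, H2-D1, H2-T23, Tap1, Tap2, Tapbp, Psmb8, Psmb9 and Nlrc5. They were chosen by name, and all 10 were found among the 50556 gene symbols of the series. At least 1 well had a count for 30597 of these symbols. The series profiled single regulatory T (Treg) cells, a CD4 lineage set by the factor Foxp3 that dampens immune reactions, sorted from mouse ear skin. Cells came from ears treated topically with 5% imiquimod, an activator of Toll-like receptors that gives a psoriasis-like inflammation, or with vehicle, and were sorted on day 3. Each treatment had 2 plates with 87 single-cell wells each, beside 16 wells of 10 Treg cells and 20 wells with no cell, for which the labels give no treatment. The design names 2 mice per treatment but ties no plate to a mouse, and the labels used here give no strain, sex or age. The plate is therefore the replicate, and p-values measure the spread between plates, which may be technical.

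MHC class I molecules show peptides from inside the cell to CD8 T cells and to natural killer cell receptors. A polymorphic heavy chain pairs with the light chain beta2-microglobulin. Peptides are cut by the proteasome, whose interferon-inducible subunits form the immunoproteasome. They are then carried into the endoplasmic reticulum by the TAP transporter and loaded with the help of tapasin. The transactivator NLRC5 binds with RFX, CREB and NF-Y proteins at X and Y boxes in class I promoters, and interferons induce most of these genes. In T cells, class I molecules are present constitutively and lymphocytes are among the cells with the most NLRC5.

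This group of genes is known for shared promoter elements, and stretches of 4 promoters, of heavy chains and the light chain, are shown for that reason. None of the 4 stretches holds all of the elements marked below. Sequences are from RefSeq promoter windows of GRCm38.p6, which span each annotated start. The files were made on mm39, so these coordinates are those of the older build. A window was given for 8 of the 10 genes, and Tap2 and Nlrc5 had none. Capitals mark exact matches on either strand of the Y-box core ATTGG, of the X2-box core TGACG, of the interferon-stimulated response element core GAAANNGAA and of the NF-kB half-site GGGGATTCC, so that a match on the other strand appears reversed and complemented. The stretches of H2-K1 (chr17:34000334-34000463, minus strand), H2-D1 (chr17:35262918-35263050, plus strand), B2m (chr2:122147543-122147643, plus strand) and H2-T23 (chr17:36032744-36032829, minus strand) read 5′ to 3′ along each gene's own strand.
H2-K1: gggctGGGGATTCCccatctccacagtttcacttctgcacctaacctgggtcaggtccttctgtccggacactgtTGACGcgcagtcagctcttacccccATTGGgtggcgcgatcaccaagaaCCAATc
H2-D1: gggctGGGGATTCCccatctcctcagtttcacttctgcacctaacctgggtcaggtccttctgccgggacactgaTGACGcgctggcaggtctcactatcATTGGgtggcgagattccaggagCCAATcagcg
B2m: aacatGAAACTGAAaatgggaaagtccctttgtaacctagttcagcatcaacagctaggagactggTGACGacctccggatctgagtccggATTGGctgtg
H2-T23: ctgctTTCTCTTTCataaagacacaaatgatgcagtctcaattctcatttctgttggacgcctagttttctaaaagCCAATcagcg

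The Y-box core stood in a window of 7 of these 8 genes, and of 41.1% of the 27025 genes with a window. The X2-box core stood in a window of 5 of the 8 (B2m, H2-D1, H2-K1, Psmb9 and Tap1), and of 23.0% of all genes. The windows of Psmb9 (chr17:34187281-34187580, minus strand) and Tap1 (chr17:34187306-34187605, plus strand) overlap. Their Y-box and X2-box matches are the same bases, which both counts thus include for each of the 2 genes. The response element core was found for B2m and H2-T23 and for 9.76% of all genes, and the NF-kB half-site for H2-D1 and H2-K1 and for 0.30% of all genes. In H2-K1, H2-D1 and B2m the X2-box core was followed by the Y-box core starting 25 bases further on the same strand, an arrangement present in 31 of all 32851 windows, or for 27 genes (0.0999%). That arrangement was noticed after the sequences were seen. These matches describe letters only and say nothing of binding in these cells.

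Of the 348 single-cell wells, 202 had at least 500 genes with a count and at least 10000 counts and were kept. They comprised 38 and 44 cells on imiquimod plates 1 and 2, and 62 and 58 cells on vehicle plates 1 and 2. Kept cells held 47481 to 5946386 counts, and the median cell had 975 and 1093 genes in imiquimod and 1040 and 1503 genes in vehicle. At least 1 of 6 Treg markers was found in 71.1% and 88.6% of imiquimod cells and in 85.5% and 94.8% of vehicle cells, and Foxp3 itself in 37.1% of all kept cells. Haemoglobin transcripts were found in 55.3% and 45.5% of imiquimod cells, against 3.23% and 22.4% of vehicle cells. Counts of Kit or Cpa3, mast cell markers, were found in 5.26% and 4.55% of imiquimod cells, against 29.0% and 25.9% of vehicle cells, and the other 2 mast cell markers, Mcpt4 and Fcer1a, were at 0. The 8 markers of antigen-presenting and myeloid cells, which carry much class I, had summed levels of 367 and 181 CPM (counts per 1e6) in imiquimod, against 104.4 and 976 CPM in vehicle. Neutrophil markers, of which Retnlg was at 0, summed to 54.3 and 55.6 CPM in imiquimod, against 0 and 13.9 CPM in vehicle. The 6 Treg markers summed to 6829 and 6872 CPM in imiquimod, against 12019 and 9406 CPM in vehicle. The part of these markers in the results below was not tested.

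Across the 10 genes, no change with imiquimod passed the test over plates. The measures gave different pictures: the level in the plate sums had a higher mean in imiquimod for most genes, while the share of cells with a count was lower for most. Counts of kept cells were summed per plate and tested with edgeR's quasi-likelihood test with Benjamini-Hochberg adjustment over 14462 genes. All 10 genes entered the test and 0 were called at an adjusted p under 0.05, as were 0 of all genes (0.0%). The smallest adjusted p of any gene was 0.42 by that test. On counts simulated with the spread fitted here, the same step recovered 0 of 100 genes given a log2 change of 4. The absence of calls therefore does not show an absence of change. At an unadjusted p under 0.05 stood 2 of the 10, H2-K1 and H2-T23, and 1669 of all genes, 249 of them higher and 1420 lower in imiquimod. The log2 fold change, imiquimod over vehicle, was positive for 8 of the 10 with a median of 0.99, while over all genes tested 46.6% were positive and the median was -0.26. Genes of like level were also shifted: the median over the 50 genes nearest in mean CPM per cell lay between 0.069 and 1.21 for each of the 10. The values of H2-D1, Tapbp, Psmb8 and Nlrc5 were below the median of their genes of like level. DESeq2 on the same sums called 4 of the 10 higher in imiquimod, namely H2-K1, H2-T23, Tap2 and Psmb9, beside 968 of all genes (6.69%). It called none of the 10 lower, beside 2772 of the 14462 genes. On plate means of log2(CPM + 1) over cells, limma called 0 genes of all tested, with 2496 at an unadjusted p under 0.05 and none of the 10 among them. By that measure, which gives each cell the same weight, the signs of H2-K1, H2-D1, Tap1 and Tapbp turned negative (-0.038, -0.14, -0.11 and -0.0052). It was positive for 4 of the 10 genes, with a median of -0.022. Over all genes tested 28.0% were positive by it, with a median of -0.12.

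**Figure D1:**
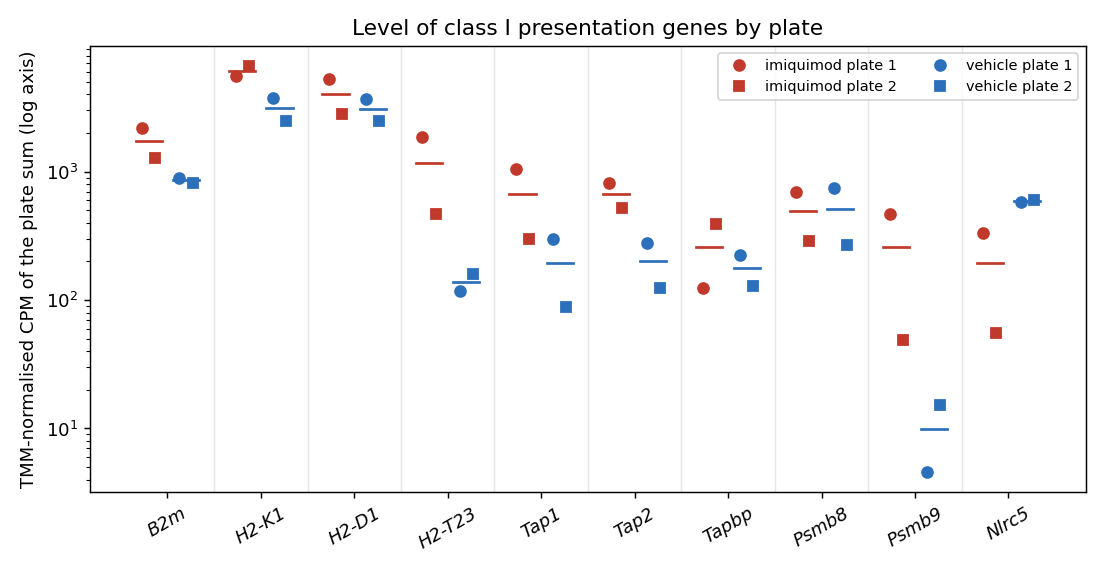
TMM-normalised CPM (counts scaled to the plate total by edgeR's TMM method; log axis) of each gene on the 2 imiquimod plates (left of each column) and the 2 vehicle plates; points are plates and lines are means over 2 plates. Both imiquimod plates lie above both vehicle plates for B2m, H2-K1, H2-T23, Tap2 and Psmb9, and both lie below for Nlrc5.

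The chains of the class I molecule itself were the most abundant members. B2m, the light chain, stood at 2187 and 1289 TMM-normalised CPM in the imiquimod plate sums, against 898 and 822 in the vehicle sums. Both imiquimod sums were the higher ones, with a log2 fold change of 1.02 ± 0.62 (SE, n = 2 plates each; edgeR adjusted p = 0.546). H2-K1, the classical heavy chain of the K locus, stood at 5543 and 6639 CPM in imiquimod, against 3775 and 2465 in vehicle. Again the plates did not overlap, and the log2 fold change was 0.97 ± 0.36 (SE; edgeR adjusted p = 0.42, DESeq2 adjusted p = 0.0137). H2-D1, the classical heavy chain of the D locus, stood at 5274 and 2833 CPM in imiquimod and at 3676 and 2477 in vehicle, with overlapping plates and a log2 fold change of 0.40 ± 0.43 (SE; edgeR adjusted p = 0.796).

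H2-T23 encodes Qa-1, a non-classical heavy chain that shows a signal peptide of classical heavy chains to CD94/NKG2 receptors. Its sums were 1857 and 467 CPM in imiquimod, against 118.5 and 160.6 CPM in vehicle, so the lower imiquimod plate lay above both vehicle plates. The log2 fold change was 3.06 ± 0.98 (SE, edgeR adjusted p = 0.42), and DESeq2 called H2-T23 at 3.66 with an adjusted p of 0.000614. On plate means of log2(CPM + 1) over cells, limma gave 0.36. The sums rest on 7 and 8 imiquimod cells and on 18 and 14 vehicle cells. The 3 highest cells held 78.0% and 90.3% of the counts of the imiquimod plates, and 69.9% and 77.5% of those of the vehicle plates. Without imiquimod plate 2, edgeR called H2-T23 at a log2 fold change of 3.84 with an adjusted p of 0.00159, beside 2.1% of all genes called higher. Without imiquimod plate 1 the log2 fold change was 1.85 with an adjusted p of 0.606. These edgeR fits leave imiquimod with 1 plate and assume that it varies like the vehicle plates.

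Of the transport and loading genes, Tap2 was the one whose plates did not overlap. Tap1 and Tap2 encode the subunits of the peptide transporter, and Tapbp encodes tapasin, which bridges the transporter and the empty class I molecule. Tap1 stood at 1049.7 and 297 CPM in imiquimod against 299 and 89.1 CPM in vehicle, with a log2 fold change of 1.79 ± 1.14 (SE; edgeR adjusted p = 0.568). After thinning each cell to 100000 counts it was 0.090, and with a plate left out it ranged from 0.71 to 2.84. Tap2 stood at 819.8 and 526 CPM in imiquimod against 279 and 124.1 CPM in vehicle, with a log2 fold change of 1.74 ± 1.05 (SE; edgeR adjusted p = 0.539). DESeq2 called Tap2 at 2.24 with an adjusted p of 0.0326. Tapbp stood at 125.2 and 394 CPM in imiquimod against 226 and 129.4 CPM in vehicle, where one plate of each treatment was high and the other low (log2 fold change 0.55 ± 1.43, SE; edgeR adjusted p = 0.94).

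Psmb8 and Psmb9 encode the interferon-inducible subunits LMP7 and LMP2 of the immunoproteasome. Psmb8 stood at 699 and 289 CPM in imiquimod against 747 and 269.98 CPM in vehicle, so both treatments covered nearly the same range. Its log2 fold change was -0.042 ± 1.00 (SE; edgeR adjusted p = 0.996), and 0.50 with DESeq2. Psmb9 stood at 469.9 and 48.6 CPM in imiquimod against 4.62 and 15.3 CPM in vehicle, with a log2 fold change of 4.70 ± 2.20 (SE; edgeR adjusted p = 0.436). DESeq2 called Psmb9 at 5.36 with an adjusted p of 0.0012, and edgeR without imiquimod plate 2 at 5.68 with an adjusted p of 0.00901. Without imiquimod plate 1, edgeR gave Psmb9 a log2 fold change of 2.40 with an adjusted p of 0.736. These values rest on few cells: Psmb9 had a count in 3 cells of each imiquimod plate and in 4 cells of each vehicle plate. On imiquimod plate 2, 1 cell held 99.96% of the Psmb9 counts.

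Nlrc5, the transactivator, had a negative log2 fold change. Its sums were 335 and 55.8 CPM in imiquimod, against 580.4 and 599 CPM in vehicle, and the log2 fold change was -1.59 ± 1.17 (SE; edgeR adjusted p = 0.648). Both imiquimod plates were below both vehicle plates, and the imiquimod plates differed from each other more than the vehicle plates did. On vehicle plate 2, 1 cell held 65.1% of the Nlrc5 counts. Without the highest cell of each plate the log2 fold change of Nlrc5 was -0.39, and with a plate left out it ranged from -3.30 to -0.71.

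In all, the level did not overlap between treatments for 5 of the 10 genes with imiquimod higher (B2m, H2-K1, H2-T23, Tap2 and Psmb9), beside 13.7% of all genes tested. It did not overlap with imiquimod lower for Nlrc5 alone, beside 31.1% of all genes. Set against the 50 other genes nearest in mean CPM per cell, the log2 fold change of H2-T23 was above 48 of 50, that of Psmb9 above 47 of 50, and that of Nlrc5 above 3 of 50. For H2-D1 it was above 21 of 50 and for Tapbp above 24 of 50.

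Per kilobase of exon, H2-K1, H2-D1 and B2m had the highest levels on every plate. The mean over the 4 plates was 2845 TMM-normalised CPM per kilobase for H2-K1, 1696 for H2-D1 and 1510.3 for B2m. H2-T23 followed at 442, Psmb8 at 308, Tap1 at 146.9, Tap2 at 126.99, Psmb9 at 99.6, Tapbp at 75.5 and Nlrc5 at 51.8. The order of the lower genes differed between plates: Tapbp was lowest on imiquimod plate 1, Nlrc5 on imiquimod plate 2 and Psmb9 on both vehicle plates. Over the plates, H2-K1 ranged from 1523 to 4101 and H2-D1 from 1179 to 2509, so these neighbours in the order overlapped, as did H2-D1 and B2m (956 to 2543). Exon lengths are from GENCODE M21 on GRCm38.

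The share of kept cells with a count gave another order of the treatments. A count of the gene was less frequent in imiquimod for 8 of the 10, with a median difference of -5.32 percentage points, and over all tested genes 23.5% of differences were positive with a median of -2.53 points. For the 50 genes of like level the median difference was more negative than over all genes, between -12.2 and -4.41 points depending on the gene. B2m was above 44 of its 50, Psmb9 above 44, Tap1 and H2-D1 above 41, Tap2 above 48, and H2-T23 and Nlrc5 above 27. H2-K1, Tapbp and Psmb8 lay below the median of their 50, above 22, 17 and 1 of them. With 2 plates against 2, the exact two-sided permutation test cannot give a p under 0.333, so no share can pass 0.05. The share of genes whose plates do not overlap is given in its place. Lower shares without overlap were found for 5 of the 10, H2-K1, H2-T23, Tapbp, Psmb8 and Nlrc5, beside 42.5% of all genes tested. A higher share without overlap was found for Tap2 alone, beside 6.29% of all genes. Both counts are near the background of all genes.

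**Figure D2:**
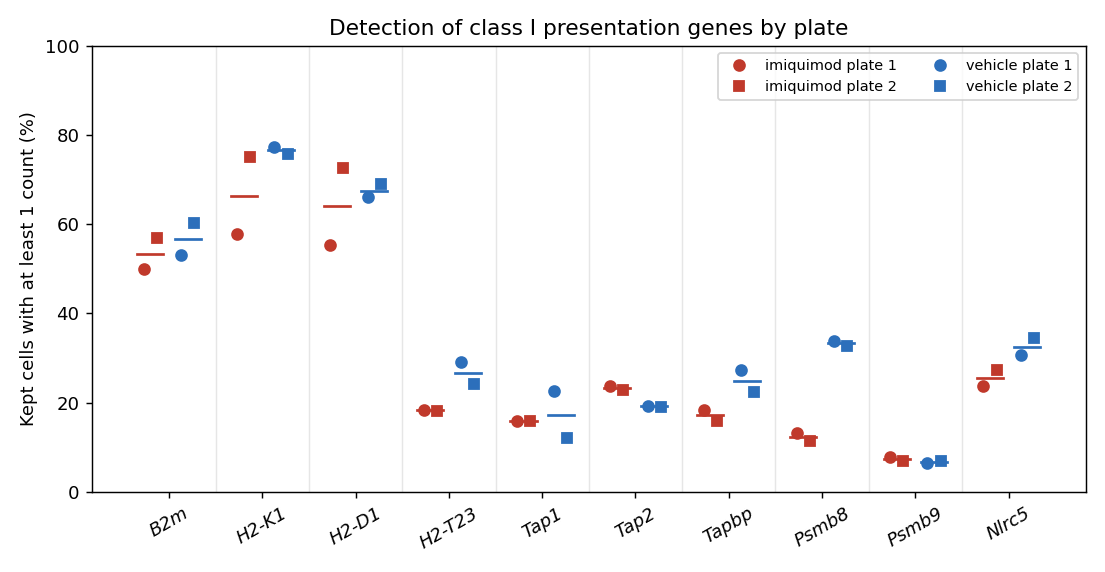
Percentage of kept cells with at least 1 count of each gene on the 2 imiquimod plates (left of each column) and the 2 vehicle plates; points are plates and lines are means over 2 plates. Psmb8 is at 11.4% to 13.2% on the imiquimod plates and at 32.8% to 33.9% on the vehicle plates, the widest gap among the 10 genes.

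H2-K1 was found in 57.9% and 75.0% of imiquimod cells, against 77.4% and 75.9% of vehicle cells. H2-D1 was found in 55.3% and 72.7% of imiquimod cells, against 66.1% and 69.0% of vehicle cells. B2m was found in 50.0% and 56.8% of imiquimod cells, against 53.2% and 60.3% of vehicle cells. Imiquimod plate 1 was the low plate for all 3 chains, and the treatments overlapped for H2-D1 and B2m. Averaged over plates, B2m was detected in 55.1% of cells, against a median of 39.7% for 50 genes of like level, and above 47 of them. H2-K1 was detected in 71.5% and H2-D1 in 65.8%, each against a median of 53.0% for its genes of like level. For both, those genes spanned the same range of 1150 to 3998 CPM per cell. H2-K1 stood at 3884 CPM and H2-D1 at 2361 CPM, so most of this range lay below H2-K1. The counts of each of these chains were less concentrated in 1 cell per plate than those of 49 of their 50 genes of like level.

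Psmb8 showed the widest difference in detection. A count was found in 5 of 38 and 5 of 44 imiquimod cells, against 21 of 62 and 19 of 58 vehicle cells. In shares this was 12.3% ± 1.27 in imiquimod and 33.3% ± 0.787 in vehicle (SD, n = 2 plates each; exact permutation p = 0.333, the smallest it can give). Of 50 genes of like level, 49 had a difference less negative than the -21.1 points of Psmb8. With at least 10 CPM as the detection limit the shares were 13.2% and 11.4% in imiquimod, against 22.6% and 20.7% in vehicle. After thinning each cell to 100000 counts they were 14.3% and 11.4%, against 24.6% and 24.1%. The direction was the same under every alternative tried, while cells with a count of Psmb8 had a median of 1479.5 and 990.3 CPM in imiquimod, against 370.2 and 269 CPM in vehicle.

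H2-T23 shows how the detection limit can set the direction. It had a count in 18.4% and 18.2% of imiquimod cells, against 29.0% and 24.1% of vehicle cells. Of the cells with a count, 0 of 7 and 0 of 8 imiquimod cells were under 10 CPM, against 10 of 18 and 5 of 14 vehicle cells. With a limit of 10 CPM the shares were 18.4% and 18.2% in imiquimod, against 12.9% and 15.5% in vehicle, and the sign turned. The median level in H2-T23-positive cells was 3069 and 557 CPM in imiquimod, against 8.73 and 206 CPM in vehicle.

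Tap1, Tap2, Tapbp, Psmb9 and Nlrc5 were each found in at most 34.5% of the cells of a plate. Tap1 was found in 15.8% and 15.9% of imiquimod cells, against 22.6% and 12.1% of vehicle cells. Tap2 was found in 23.7% and 22.7% of imiquimod cells, against 19.4% and 19.0% of vehicle cells, a difference of 4.05 points that became -0.61 in cells with at least 1000 genes. Tapbp was found in 18.4% and 15.9% of imiquimod cells, against 27.4% and 22.4% of vehicle cells, a gap that vanished with a limit of 10 CPM (0.082 points). Among these 3 genes a few cells carried most counts: the highest cell held 69.2% of the Tap2 counts of imiquimod plate 1 and 66.8% of the Tapbp counts of imiquimod plate 2. Psmb9 was the rarest at 7.89% and 6.82% of imiquimod cells, against 6.45% and 6.90% of vehicle cells. Nlrc5 was found in 23.7% and 27.3% of imiquimod cells, against 30.6% and 34.5% of vehicle cells. Averaged over plates, Nlrc5 was detected in 29.0% of cells, above 40 of the 50 genes of its level.

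A kept cell held a count of 2.84 and 3.23 of the 10 genes on the imiquimod plates, and of 3.66 and 3.57 on the vehicle plates. The plate means averaged 3.03 ± 0.27 in imiquimod and 3.62 ± 0.07 in vehicle (SD, n = 2 plates each), a difference of -0.58 genes. With a limit of 10 CPM the difference was -0.14, and after thinning -0.34. None of the 10 was found in 8 and 5 imiquimod cells and in 3 and 8 vehicle cells. At least 5 were found in 8 and 12 imiquimod cells, 21.1% and 27.3% of the plates, and in 22 and 18 vehicle cells, 35.5% and 31.0%. A single cell, on vehicle plate 1, held all 10.

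**Figure D3:**
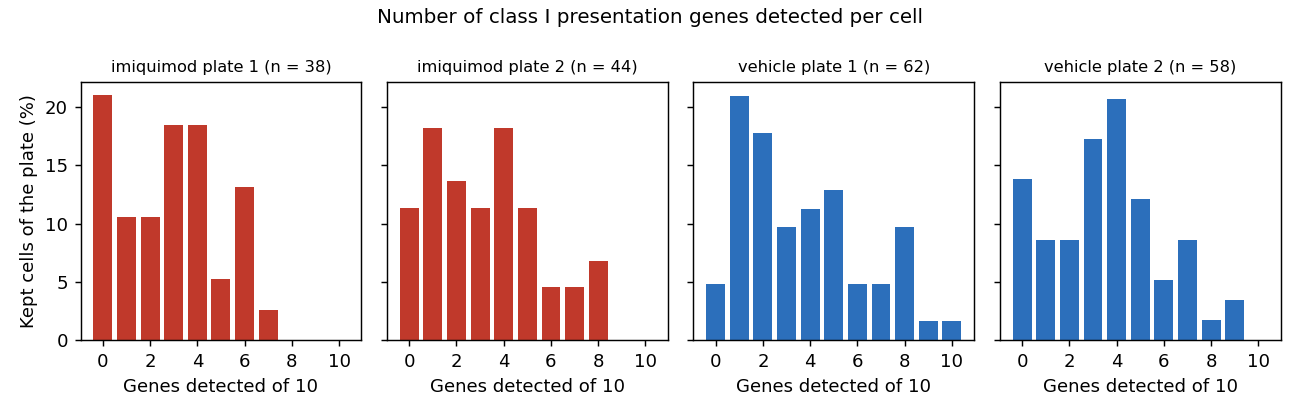
Percentage of kept cells (vertical axis) by the number of the 10 genes with at least 1 count (horizontal axis), one panel per plate, imiquimod plates left of vehicle plates. Cells with none make up 21.1% of imiquimod plate 1 and 4.84% of vehicle plate 1, and cells with 8 or more are absent from imiquimod plate 1.

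The number of these genes in a cell followed the number of all genes detected in it. Spearman's rho across cells was 0.75 and 0.70 within the imiquimod plates and 0.67 and 0.68 within the vehicle plates; the cells of a plate share its preparation, and depth per cell differs among them. Cells above their plate's median of genes held 4.05 and 4.73 of the 10 on the imiquimod plates, against 1.63 and 1.73 in the other cells. On the vehicle plates they held 5.06 and 5.14, against 2.26 and 2.00. Cells with at least 3 of 20 interferon-induced genes (7 and 10 imiquimod cells, 9 and 12 vehicle cells) held more as well. They averaged 4.57 and 5.50 of the 10 in imiquimod, against 2.45 and 2.56 in the remaining cells. In vehicle they averaged 7.67 and 5.25, against 2.98 and 3.13. The cells in this split were not matched for the number of genes detected, so a relation apart from it was not tested. The vehicle cell with all 10 was the cell of that plate with the most interferon genes, 11 of 20. The corresponding cells held 6 and 8 of the 10 on imiquimod plates 1 and 2, and 5 on vehicle plate 2, where other cells held up to 9.

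Pairs of the genes were found together more often than the product of their shares within plates. Of the 45 pairs, 44 had a ratio of observed to expected cells above 1, with a median of 1.42 over pairs. For comparison, each gene of a pair was also set with other genes near its partner in level. These like-level pairs had a median of 1.34, and 37 of the 45 pairs exceeded the median of their own like-level pairs. When the expected number was taken separately in cells above and at or below each plate's median of genes, the median ratio was 1.17 and 41 pairs stayed above 1.

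**Figure D4:**
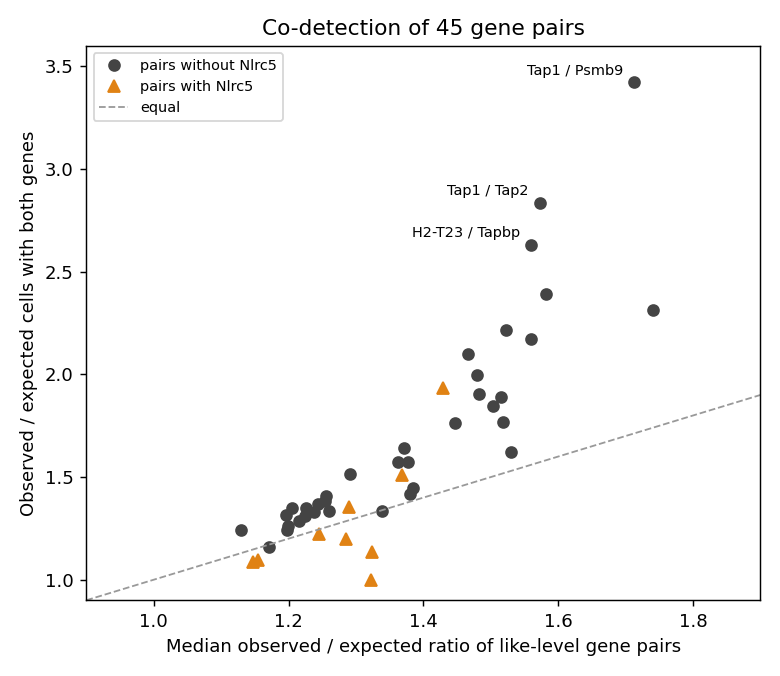
Observed over expected number of cells with both genes of a pair (vertical axis), for 45 pairs. The horizontal axis is the median of that ratio for like-level pairs. These join a gene of the pair with other genes near its partner in level. Triangles are pairs with Nlrc5 and the dashed line marks equality. Tap1 with Psmb9 (3.42), Tap1 with Tap2 (2.84) and H2-T23 with Tapbp (2.63) lie highest, and 6 of the 9 pairs with Nlrc5 lie below the line.

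Tap1 and Tap2, the transporter's subunits, were found together in 20 cells, where 7.05 were expected (ratio 2.84, above 98 of 98 like-level pairs). H2-T23 and Tapbp were found together in 28 cells, where 10.6 were expected (ratio 2.63, above 99 of 100). Tapbp and Psmb8 were found together in 26 cells, where 11.7 were expected (ratio 2.22, above 94 of 100). The highest ratio, 3.42 for Tap1 and Psmb9, rests on 8 cells, and these genes overlap at their exons on opposite strands. The pairs with Nlrc5 were singled out after their values were seen. Their median ratio was 1.20, and 3 of 9 exceeded the median of their like-level pairs, against 34 of 36 pairs without Nlrc5. With the expected number taken separately above and at or below the median of genes, their median ratio was 1.01. By that measure it was 1.20 for the pairs without Nlrc5. Tap1 and Nlrc5 were found together in 10 cells, where 10.0 were expected. On imiquimod plate 1, cells with Nlrc5 held 2.56 of the other 9 genes and cells without it 2.62; on imiquimod plate 2 the values were 3.92 and 2.59. On the vehicle plates they were 4.21 and 2.98 on plate 1 and 3.65 and 3.00 on plate 2. Cells with Nlrc5 also had more genes with a count. Their medians were 1112 and 1632.5 genes in imiquimod and 1494 and 2348 in vehicle. Cells without it had 809 and 1074.5 in imiquimod and 924 and 1226.5 in vehicle.

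Some of these counts cannot be assigned to 1 gene. B2m lies within the span of Patl2, a gene on the opposite strand that shares no exon with it in GENCODE M21. All cells with B2m had Patl2 counts too, and in 91.96% of them the Patl2 count lay within 5% of the B2m count. The H2-T23 gene lies within the span of A930015D03Rik, an antisense transcript, and all 47 cells with H2-T23 had counts of it. Summed over those cells, A930015D03Rik held 102.2% of the H2-T23 counts. In most cells with a count of B2m or H2-T23, that count cannot be told apart from the count of the overlapping gene. For Tap1 and Psmb9 the counts were not matched in this way: 8 of 34 cells with Tap1 had Psmb9, 8 of 14 cells with Psmb9 had Tap1, and in none of these did the counts lie within 5%. Of the 50-base stretches of exon, 29.8% in H2-T23, 21.0% in Tapbp, 14.3% in H2-D1, 12.6% in Tap2 and 12.5% in Psmb9 also occur in exons of other genes. The share was 8.79% in H2-K1, 6.47% in Tap1, 5.83% in Psmb8 and 0% in B2m and Nlrc5.

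The genes whose level followed the summed CPM of the 10 most closely across cells, by the mean of Spearman's rho within the 4 plates, came from the same places. Among 984 genes found in at least 25% of kept cells, the median was 0.14 and the 99th percentile 0.40. H2-Q1, a non-classical heavy chain, had the highest value at 0.77, followed by H2-T-ps at 0.64, Gm7030 at 0.62, A930015D03Rik at 0.58, LOC118568331 at 0.57 and Patl2 at 0.46. H2-Q1 shares 7.40% of the 50-base stretches of H2-D1, and 91 of the 100 cells with H2-Q1 had H2-D1. Its median level in those 100 cells was 2.89 CPM. H2-T-ps shares 12.9% and Gm7030 7.80% of the 50-base stretches of H2-T23. A930015D03Rik and Patl2 are the overlapping genes of the preceding paragraph. For LOC118568331 no overlap or shared stretch is given here.

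The other genes of the pathway were taken from a list of 30, of which 26 entered the edgeR test. None was called, and 0 of the 26 had an unadjusted p under 0.05. The log2 fold change was positive for 23 of the 26, with a median of 0.86. All 6 remaining proteasome genes were positive, with a median of 2.89. Among them Psme2, a subunit of the PA28 activator, stood at 518 and 173.6 TMM-normalised CPM in imiquimod, against 51.9 and 37.3 in vehicle (log2 fold change 2.96 ± 1.61, SE; edgeR adjusted p = 0.477). Psmb6, the constitutive subunit that Psmb9 replaces, stood at 922 and 105.7 CPM in imiquimod, against 66.9 and 78.2 CPM in vehicle (2.82 ± 1.41, SE; edgeR adjusted p = 0.448). Psmb9 and the subunit it replaces thus had fold changes of the same sign. These proteasome values rest on few cells. Psme2 had a count in 4 and 4 imiquimod cells and in 12 and 10 vehicle cells. Psmb6 had one in 5 and 3 imiquimod cells and in 5 and 9 vehicle cells. On imiquimod plate 1, the highest cell held 62.1% of the Psme2 counts and 46.1% of the Psmb6 counts. Psme1 was found in 1 cell of imiquimod plate 1 and Psmb10 in 1 cell of imiquimod plate 2.

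Of the chaperones, Pdia3, which forms part of the peptide-loading complex, was found in 15.8% and 20.5% of imiquimod cells, against 33.9% and 34.5% of vehicle cells. Canx, calnexin, was found in 18.4% and 22.7% of imiquimod cells, against 33.9% and 37.9% of vehicle cells. All 5 loading genes had lower shares in imiquimod without overlap. The same held for 10 of the 26 pathway genes tested, beside 42.5% of all genes tested. None of the 26 had a higher share without overlap, beside 6.29% of all genes. Among the regulators, Irf1, an interferon-induced activator of class I genes, stood at 259.7 and 1418 CPM in imiquimod, against 353 and 192 CPM in vehicle. Its plates overlapped, with a log2 fold change of 1.62 ± 1.04 (SE; edgeR adjusted p = 0.571). Of the class Ib heavy chains, H2-T22 stood at 350.2 and 494 CPM in imiquimod, against 160.03 and 146.6 CPM in vehicle, and H2-Q6 at 75.9 and 44.1 CPM, against 51.7 and 20.7 CPM.

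The wells of 10 cells held more genes than single cells. They contained 710021 to 9159522 counts and 4345 to 11124 genes. A median of 9 of the 10 class I genes was found per well, with a range of 6 to 10, and 3 wells held all 10. B2m, H2-K1 and H2-D1 were found in 16 of 16 wells, H2-T23, Tapbp and Nlrc5 in 15, Tap2 in 14, Psmb8 in 13, Tap1 in 10 and Psmb9 in 6. In a well of several cells, fewer positive cells and less RNA per cell cannot be told apart.

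**Figure D5:**
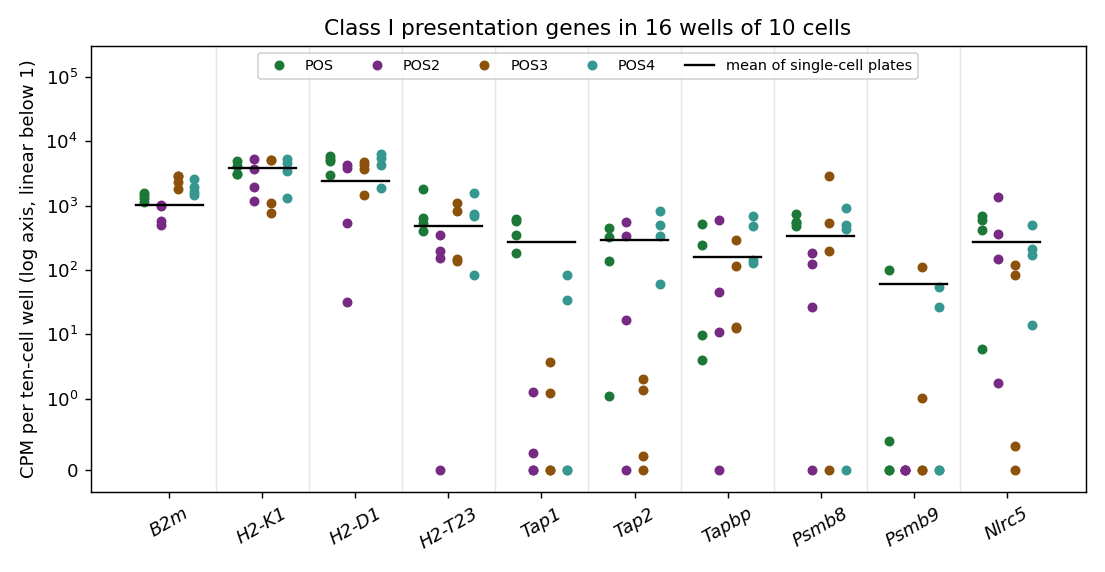
CPM of each gene in the 16 wells of 10 cells, in 4 sets of 4 wells named POS to POS4 in the labels (log axis, linear below 1); black lines are the mean over the 4 single-cell plates of CPM per kept cell. Tap1 is at 180 CPM or more in all 4 wells of the POS set and at 84.5 CPM or less in the other 12 wells.

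B2m had a median of 1518 CPM over these wells (502 to 2914), H2-K1 one of 3560 (769 to 5308) and H2-D1 one of 4243 (31.4 to 6356). Their coefficients of variation were 45.5%, 49.0% and 50.7% between wells of 10 cells, against 191%, 168.1% and 166.3% between single cells. The rarer genes varied more, from 90.7% for H2-T23 to 202% for Psmb9. If 10 cells were drawn with the shares seen in kept single cells, a count of Tap1 would be found in 83.7% of wells, and 62.5% had one. For Psmb9 37.5% of wells had a count where 51.7% would be drawn, and for Psmb8 81.3% where 92.5% would be. H2-T23 and Tapbp went slightly past the draw, both at 93.75% of wells, where 92.1% and 90.6% would be drawn. Tap1 was uneven between sets: the 4 wells of the POS set held 180 to 624 CPM, and no well of the other sets more than 84.5. The labels do not say which treatment or plate a set belongs to.

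Most wells without a cell had no count of these genes. Of the 20, 4 had no count at all and 8 had over 100000 counts, and 1 passed the filter used to keep cells, with 1527760 counts, 885 genes and 4 of the 10. A count of any of the 10 genes was found in 5 wells, all in the sets named CTRL2 and CTRL3. H2-K1 was found in 1 of them at 25045 counts, or 81963 CPM, above the highest kept cell at 44827 CPM. H2-T23 was found in 1, at 5759 CPM, and B2m, H2-D1 and Tapbp in 3 each. Tap1, Tap2, Psmb8, Psmb9 and Nlrc5 were found in 0 of 20, which allows a share of up to 15% of such wells, counting error only.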

How the data were processed

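The deposited values are raw counts of reads per gene and well for 384 wells, made by the authors. Per the submitters' processing notes, Trimmomatic 0.39, STAR 2.7.3a, SAMtools 1.12 and mm39 were used. The counting tool, strand setting and annotation are not given in the sources used here. Per the labels' protocols, cDNA was primed with oligo dT and extended by template switching; no molecular identifiers are mentioned. Single-cell wells with at least 500 genes and 10000 counts were kept and summed by plate, giving 67319087 and 99183184 counts for imiquimod and 90448592 and 99396458 for vehicle. The members, lists, tests and rule for named genes were chosen with earlier results of these data known. The rule names the 10 genes always, of 4 lists of other pathway genes those past the threshold and the 2 of highest mean CPM, and the 6 genes of most like pattern. Of these, 1 gene is not reported here.

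Sums were tested with edgeR 4.0.16 (filterByExpr, TMM, quasi-likelihood F-test, Benjamini-Hochberg, threshold 0.05) in R 4.3.3. Alternatives were DESeq2 1.42.0, its size factors in edgeR, limma 3.58.1 on log2(CPM + 1), other filters on cells or genes, thinning to 100000 counts, each gene minus its highest cell on a plate and leaving out each plate. The edgeR step was tested on simulated data. With the dispersion fitted here it recovered 0 of 100 genes given a log2 change of 4 and 0 of 100 given 2. With a dispersion of 0.05 it recovered 100 of 100 for each change. Genes of like level are the 50 nearest in mean CPM per cell. Like-level pairs join either gene of a pair with the genes of like level to its partner. Shares were compared by an exact permutation test in SciPy 1.17.1. Exon lengths and 50-base stretches came from GENCODE M21 of GRCm38, promoters from RefSeq windows of GRCm38.p6. Doublets were not called, because single cells had been sorted into wells.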

Additional observations from a re-analysis of the deposited data

How the results depend on the processing

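Of 130 log2 fold changes recomputed for the 10 genes, 6 passed the threshold and 12 changed sign; the others kept sign and side. The number of genes called was 0 in the main comparison, 4 with DESeq2 and 0 to 2 when a plate was left out (2 without imiquimod plate 2). Over all genes these counts were 0, 3740 with DESeq2, 9 without an expression filter, 215 without imiquimod plate 1 and 794 without imiquimod plate 2. DESeq2's size factors moved the median of all genes to 0.11, against -0.26 with TMM, and 9 of the 10 were then positive. With limma on the mean log2(CPM + 1) the value was -0.038 for H2-K1, -0.14 for H2-D1, -0.11 for Tap1 and -0.0052 for Tapbp. By that measure 28.0% of all genes were positive. Psmb8 turned to 0.50 with DESeq2 and with its size factors in edgeR, to 0.76 in cells with a T cell receptor or CD3 count and to 0.43 without the highest cell. When a plate was left out, H2-D1 ranged from -0.021 to 0.88, Tapbp from -0.41 to 1.24, Psmb8 from -0.72 to 0.80, B2m from 0.69 to 1.45, H2-K1 from 0.70 to 1.25, H2-T23 from 1.85 to 3.84, Tap1 from 0.71 to 2.84, Tap2 from 1.27 to 2.37, Psmb9 from 2.40 to 5.80 and Nlrc5 from -3.30 to -0.71. The cause was not tested.

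Of 90 differences in detection, 14 changed sign. With a limit of 10 CPM they were 1.21 points for B2m, 4.09 for H2-T23 and 0.082 for Tapbp. After thinning they were 3.14 for H2-T23 and 0.57 for Tapbp. With at least 1000 genes they were 3.87 for H2-D1 and -0.61 for Tap2. Without a minimum of genes Tap2 was at -1.08. In cells with a T cell receptor or CD3 count H2-D1 was at 0.72 and Psmb9 at -0.17. When a plate was left out, B2m ranged from -6.94 to 0.18, H2-D1 from -12.3 to 5.18 and Tap1 from -6.73 to 3.78. The mean number of genes per cell differed by -0.14 with a limit of 10 CPM, by -0.34 after thinning and by -0.77 to -0.39 when a plate was left out. No paired analysis was possible because the plate numbers do not tie plates across treatments.

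Depth per cell spans 47481 to 5946386 counts, and rare genes such as Psmb9 rest on 14 cells, so shares of a few percent were not separable between treatments.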
